A study of Mus musculus with 6 samples.

Results

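Axon guidance ligands and receptors were followed in endothelial cells of the mouse embryo: the semaphorins and their plexin receptors, the ephrins and Eph receptors, the Slits and Robo receptors, and the netrins and Unc5 receptors. Members were the rows of the count table whose gene symbol belongs to Sema3 to Sema7, Plxna to Plxnd, Epha, Ephb, Efna, Efnb, Robo, Slit, Unc5 or Ntn, and these were 66 of 23420 genes, 35 of them ligands and 31 receptors. All cells came from whole embryos of the strain Csf1r-iCre;RosatdTomato at embryonic day 12.5, in which the Cre recombinase iCre, driven by the promoter of the myeloid receptor gene Csf1r, switches on the red protein tdTomato from the Rosa26 locus. Both groups therefore carried both alleles and differed in whether recombination had occurred. The tdTom+ group held endothelial cells that showed tdTomato, and so had expressed iCre or descended from cells that had, and the tdTom- group held endothelial cells of the same 3 embryos that did not. Cells with PECAM1 on their surface and without CD45, CD11b or KIT were sorted, and 3 libraries per group, numbered 1 to 3, were sequenced. The labels do not say that each library came from its own embryo, so p-values measure the spread between these libraries.

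These molecules were named for steering growing axons, but vessels use them too. Class 3 semaphorins are secreted and bind plexins, most of them together with a neuropilin, while semaphorins of classes 4 to 7 are anchored in the membrane. Ephrins sit on one cell and Eph receptor tyrosine kinases on its neighbour, and both sides can signal. In the embryo ephrin-B2 marks arterial and EphB4 venous endothelium, plexin-D1 and Robo4 are endothelial receptors, and UNC5B is found on arterial and sprouting vessels.

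Library totals ran from 8919887 to 11767956 counts, and 13142 genes were abundant enough to test, 58 of the 66 guidance genes among them. Genes with any count numbered 15300, 14432 and 14748 in the tdTom+ libraries, against 16070, 16109 and 15850 in the tdTom- libraries, without overlap. The part of this difference in the values of the rarer guidance genes was not tested. CPM values are counts scaled to library size by the TMM method, and 3 counts corresponded to 0.254 to 0.336 CPM, for counting error only. Of the genes of the sort, Pecam1 had 8224 to 10514 counts per library, while Ptprc, which encodes CD45, had at most 22 and Itgam, which encodes CD11b, at most 12. Kit RNA was present in all libraries although the cells were sorted without KIT on their surface, with 950, 1023 and 890 counts in the tdTom+ libraries, against 1159, 1435 and 1108 counts in the tdTom- libraries. Xist had 1224 and 571 counts in the libraries numbered 3 of the tdTom+ and tdTom- groups and at most 8 in the others, so those numbered 3 held female cells in both groups.

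No guidance gene passed the test between tdTom+ and tdTom- cells (quasi-likelihood test of edgeR, libraries not paired, p adjusted by Benjamini-Hochberg over all genes, under 0.05). Of all tested genes 1.58% passed, 0.769% higher and 0.814% lower in tdTom+ cells. At an unadjusted p under 0.05 there were 10 of 58, or 17.2%, beside 10.7% of all tested genes. Of these, 9 were lower in tdTom+ cells (Efnb2, Epha7, Ephb3, Epha4, Plxnb1, Slit2, Epha3, Sema3g and Ntn4), a direction and p reached by 5.94% of all tested genes, and Plxnc1 was the 1 that was higher, beside 4.76%. The log2 fold difference, tdTom+ over tdTom- throughout, was below 0 in 40 of the 58 genes and had a median of -0.20, beside 50% of all genes below 0 and a median of -0.00026. The 3 libraries of one group lay wholly below those of the other in 13 of the 58 genes, all of them lower in tdTom+ cells, beside 9.35% of all tested genes with that order and 7.88% with the opposite one. Genes of a family are not replicates, and these counts test no family.

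Other tools, and edgeR with the replicate number as a block, called a few of them. DESeq2 called 4 of 62 genes with an adjusted p lower in tdTom+ cells, or 6.45%, and 0 higher, beside 3.32% of all genes in either direction (1.92% lower and 1.39% higher), and they were Efnb2, Epha7, Ephb3 and Slit2. In the authors' deposited table the same 4 had adjusted p of 0.0184, 0.00401, 0.0451 and 0.0469, and that table's share of all genes under 0.05 was likewise 3.32%. The submitters also named DESeq2 and the counts are the same, so that table is not separate support. Limma-voom called 0, beside 1.13% of all genes (0.609% lower and 0.525% higher), and at an unadjusted p under 0.05 it had 12 of 58, or 20.7% (11 lower and 1 higher), beside 11.8% of all genes (7.22% lower and 4.54% higher). With the replicate number as a block, edgeR called 2 of 58, or 3.45%, lower in tdTom+ cells and 0 higher. They were Epha3 and Epha7 (edgeR adjusted p = 0.0412 and 0.0177). Over all 13142 tested genes this fit called 167 lower and 128 higher. No label ties a replicate number to an embryo, so the block was an alternative and not the main fit. The plot of fold changes shows all 58 genes with their errors.

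**Figure D1:**
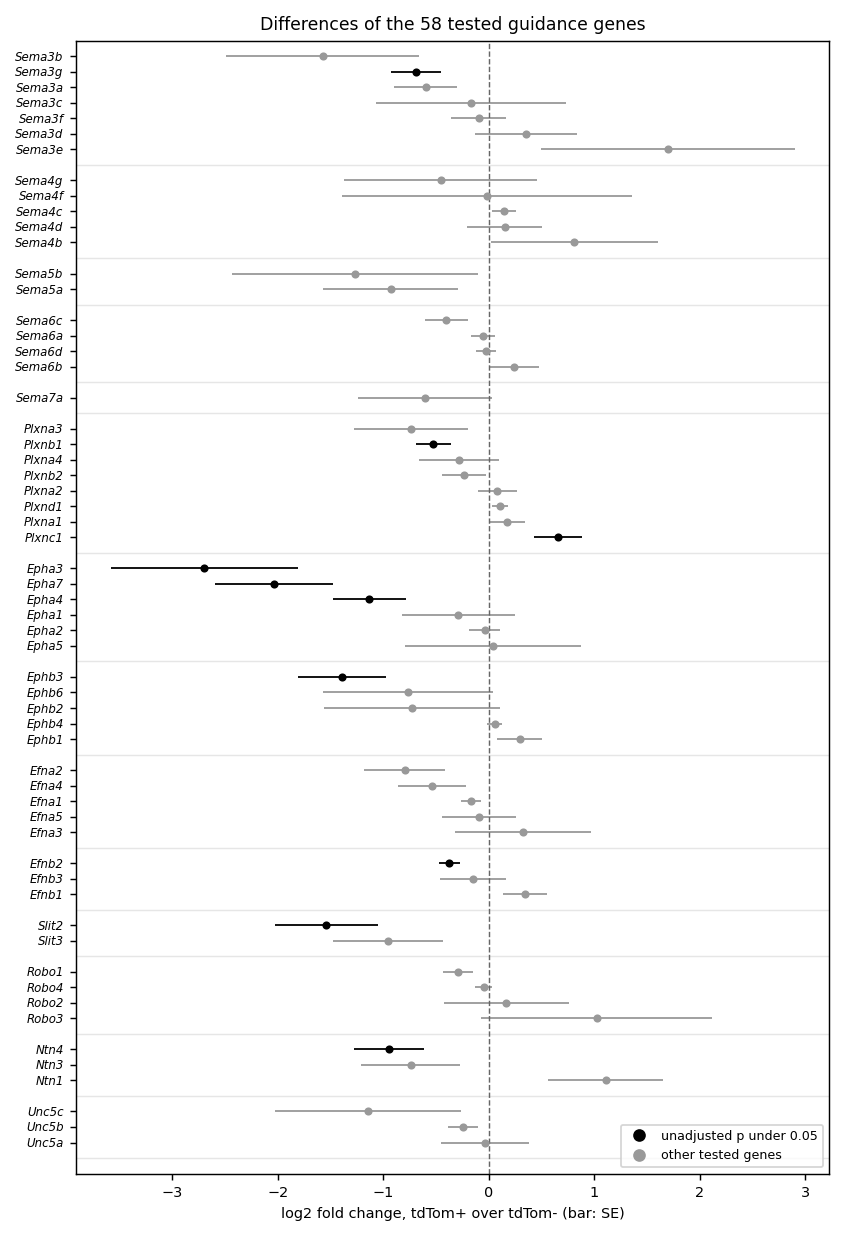
Log2 fold change, tdTom+ over tdTom-, of the 58 tested guidance genes, grouped by family, with the SE as a bar and 3 libraries per group. The 10 genes in black had an unadjusted p under 0.05, and 9 of these lie left of 0, with Epha3 and Epha7 farthest from it.

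A handful of genes made up most of the guidance transcripts, and they ranked alike in both fractions. On the scale of CPM per kilobase of exon, on which genes can be compared with each other, the 10 highest means stood in the same order in both groups: Efna1, Plxnd1, Ephb4, Robo4, Efnb2, Sema4c, Sema6d, Sema6a, Epha2 and Sema3f. Efna1, a ligand of EphA receptors, was highest with 177 ± 21.9 in tdTom+ and 198 ± 10.6 in tdTom- cells (SD, n = 3 each). Plxnd1 had 108 ± 3.05 in tdTom+ and 100.3 ± 8.57 in tdTom- cells, Ephb4 had 104 ± 8.03 in tdTom+ and 100.1 ± 2.502 in tdTom- cells and Robo4 had 93.0 ± 4.97 in tdTom+ and 96.2 ± 8.12 in tdTom- cells (SD, n = 3 each). These 3 neighbours in the order differed by about their spread and cannot be ranked, whereas Efna1 above them and Efnb2 below them, with 44.2 ± 2.67 in tdTom+ and 57.4 ± 7.23 in tdTom- cells, stood apart. Further down, Sema4c and Sema6d were also too close to rank, with 27.7 ± 3.60 and 27.0 ± 2.57 in tdTom- cells. In tdTom+ cells Sema6a and Epha2, with 21.5 ± 2.63 and 17.5 ± 3.35, lay about their spread apart (SD, n = 3 each). The 5 highest genes held 67.1% to 73.4% of the summed CPM per kilobase of all 66 genes in tdTom+ libraries and 67.1% to 70.4% in tdTom- libraries. At the other end, 35 of the 66 genes averaged under 10 CPM over the 6 libraries and 8 of them under 1 CPM.

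Within a family, 1 gene usually dominated. Per kilobase, Ephb4 held 94.7% to 95.9% in tdTom+ libraries and 92.5% to 94.4% in tdTom- libraries of the EphB transcripts. Robo4 held 91.8% to 93.6% in tdTom+ libraries and 91.2% to 93.5% in tdTom- libraries of the Robo transcripts, and Efna1 held 90.0% to 94.4% in tdTom+ libraries and 89.5% to 93.5% in tdTom- libraries of the ephrin-A transcripts. Among EphA receptors the share of Epha2 was 73.6% to 89.3% in tdTom+ libraries and 59.3% to 70.5% in tdTom- libraries, without overlap between the groups. Summed over all 35 ligand genes there were 1271, 1256 and 1315 CPM in the tdTom+ libraries, against 1518, 1372 and 1391 CPM in the tdTom- libraries, so that the groups did not overlap, and over the 31 receptor genes 2203, 2051 and 2232 CPM in the tdTom+ libraries, against 2271, 2156 and 2105 CPM in the tdTom- libraries, where they did.

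**Figure D2:**
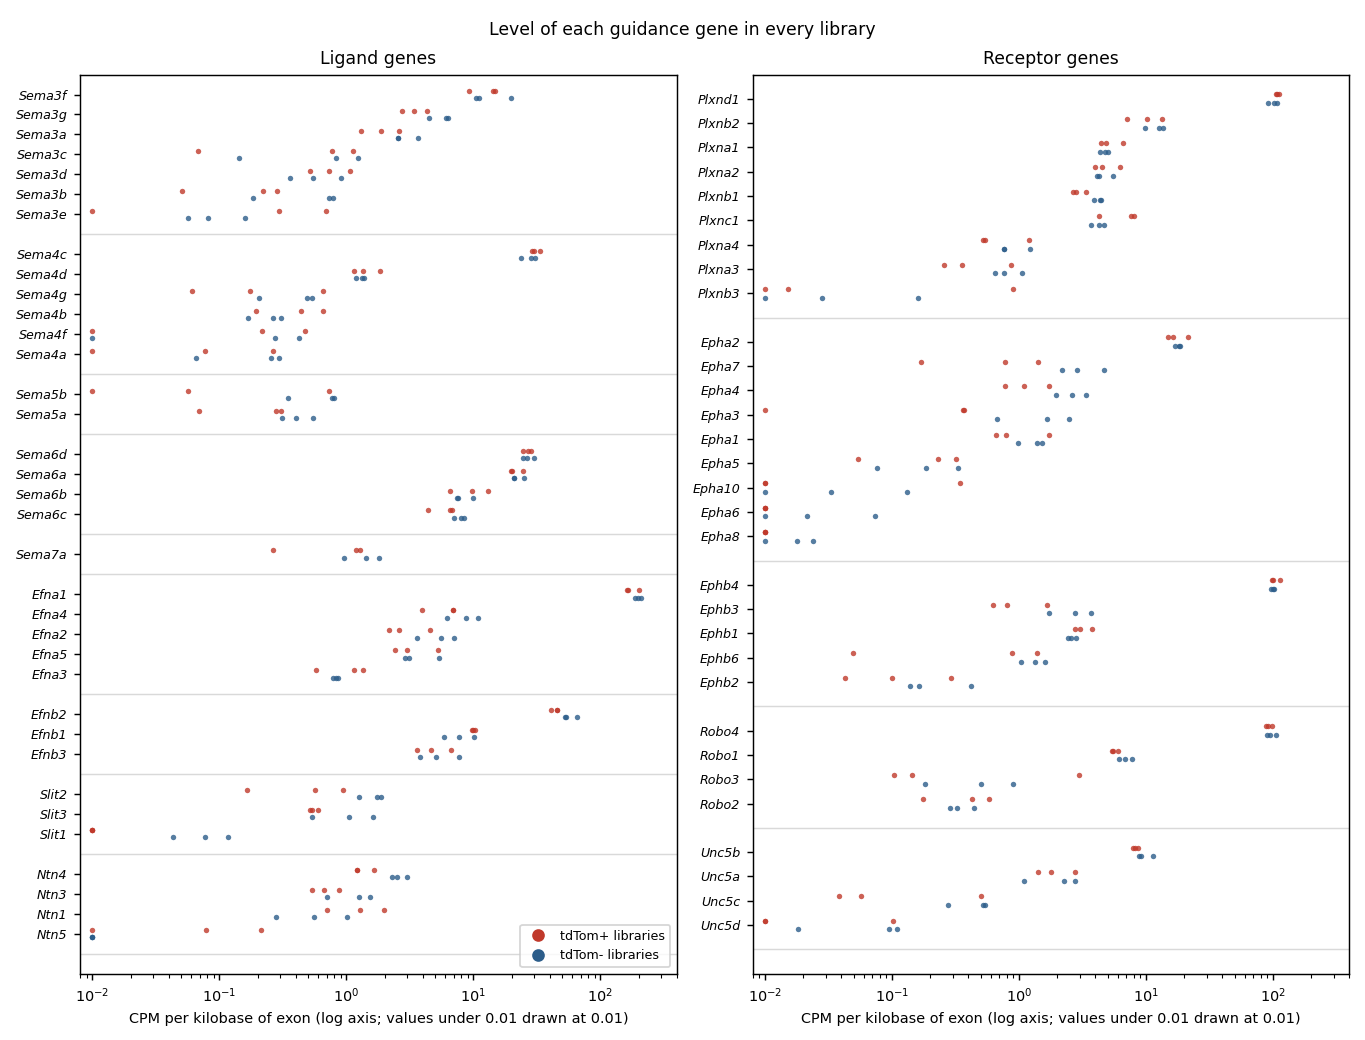
CPM per kilobase of exon, on a log axis, of every guidance gene in every library, ligands on the left and receptors on the right, with tdTom+ libraries in red above tdTom- libraries in blue for each gene and values under 0.01 drawn at 0.01. Most points of both colours share a place, and Epha7, Epha4, Epha3, Ephb3 and Slit2 show blue points to the right of the red ones.

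Ephrin-B2 and EphB4, the artery and vein pair, are shown with their promoters because they are the best studied guidance pair of embryonic vessels and because Efnb2 had the smallest p of all members in the edgeR test. With DESeq2 and limma-voom the p of Epha7 was smaller. The sequences are the 250 bases before and 50 after the RefSeq transcript start (GRCm38.p6, the same assembly as mm10), for Efnb2 at chr8:8661193-8661492, minus strand, and for Ephb4 at chr5:137349859-137350158, plus strand, written 5′ to 3′ with each CG dinucleotide (CpG) in capitals.
Efnb2: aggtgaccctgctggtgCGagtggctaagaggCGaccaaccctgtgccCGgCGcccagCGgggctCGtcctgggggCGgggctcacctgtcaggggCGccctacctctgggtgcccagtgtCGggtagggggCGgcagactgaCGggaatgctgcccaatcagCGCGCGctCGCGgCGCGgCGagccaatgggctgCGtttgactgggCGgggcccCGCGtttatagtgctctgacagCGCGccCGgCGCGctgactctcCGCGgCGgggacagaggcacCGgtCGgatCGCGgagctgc
Ephb4: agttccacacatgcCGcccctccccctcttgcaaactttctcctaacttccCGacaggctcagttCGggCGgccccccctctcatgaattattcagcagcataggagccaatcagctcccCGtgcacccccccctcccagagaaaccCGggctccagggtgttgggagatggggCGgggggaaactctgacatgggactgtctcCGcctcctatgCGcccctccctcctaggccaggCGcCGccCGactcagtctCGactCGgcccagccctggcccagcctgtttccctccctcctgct
The Efnb2 window held 35 CpG and the Ephb4 window 14.

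Efnb2 (chromosome 8, 8617434 to 8661242, mm10) had 220.2, 219 and 197 CPM in the tdTom+ libraries, against 315, 253 and 257 CPM in the tdTom- libraries. Every tdTom+ library lay below every tdTom- library, and the means were 212 ± 12.8 CPM in tdTom+ cells and 275 ± 34.6 CPM in tdTom- cells (SD, n = 3 each). The log2 fold difference was -0.37 ± 0.10 (SE), or 1.30-fold lower, with a 95% interval of -0.59 to -0.16, and did not pass (edgeR adjusted p = 0.111); over the alternatives the adjusted p ran from 0.0185 with DESeq2 to 0.485. Ephb4 (chromosome 5, 137350109 to 137378669) had 494, 432 and 435 CPM in the tdTom+ libraries, against 447, 439 and 426 CPM in the tdTom- libraries, and its groups overlapped. Its log2 fold difference of 0.05 ± 0.07 (SE, edgeR adjusted p = 0.882) had a 95% interval of -0.11 to 0.22, which does not show that the groups were equal. The ratio of Efnb2 to Ephb4 counts within a library was 0.445, 0.506 and 0.454 in the tdTom+ libraries, against 0.704, 0.576 and 0.604 in the tdTom- libraries. The ratio was lower in every tdTom+ library than in any tdTom- library. Because these are bulk samples, fewer arterial cells and less Efnb2 RNA per cell cannot be told apart.

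Arterial and venous gene lists that include this pair were also counted, so their sums hold Efnb2 and Ephb4 themselves. Of 20 arterial genes tested, Efnb2, Sema3g and Unc5b among them, 3 were called lower (Jag1, Alpl and Gja4) and 0 higher. Over all tested genes 0.814% were called lower and 0.769% higher. The arterial median log2 fold difference was -0.41, beside -0.00026 over all genes. The arterial list summed to 2079.8, 2213 and 2003 CPM in the tdTom+ libraries, against 2497, 2615 and 2464 CPM in the tdTom- libraries. Of 9 venous genes tested, Ephb4 among them, 2 were called higher (Flt4 and Nrp2) and 0 lower, with a median of 0.33. Flt4 is also in the liver sinusoidal list given below, and Nrp2 is also a lymphatic gene. Venous sums were 4378, 4678 and 4193 CPM in the tdTom+ libraries, against 3971, 4380 and 4021 CPM in the tdTom- libraries. The arterial sums did not overlap between the groups and the venous sums did. The part of arterial and venous cell shares in the values of Efnb2 and Ephb4 was not tested.

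**Figure D3:**
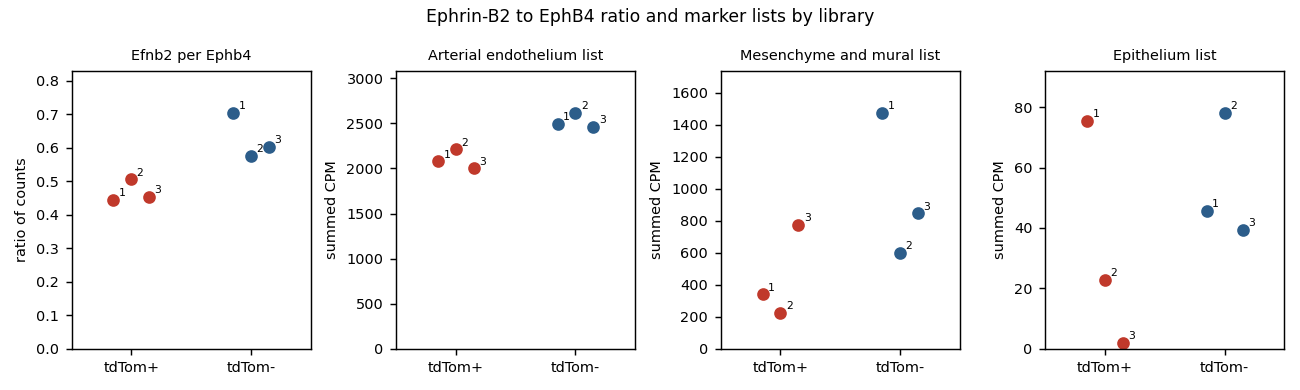
From left to right, the ratio of Efnb2 to Ephb4 counts, and the summed CPM of the arterial endothelium, mesenchyme and mural, and epithelium lists, in each of the 3 tdTom+ and 3 tdTom- libraries, numbered by replicate. The ratio is 0.445 to 0.506 in tdTom+ and 0.576 to 0.704 in tdTom- libraries without overlap, as are the arterial sums, while the mesenchyme and epithelium sums overlap. The arterial list includes Efnb2.

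Among the other ephrin-B ligands, Efnb1, an X-linked gene whose protein also signals through EphB receptors, had 33.6, 32.2 and 31.5 CPM in the tdTom+ libraries, against 32.7, 19.1 and 25.1 CPM in the tdTom- libraries, with overlapping groups and a log2 fold difference of 0.34 ± 0.21 (SE, edgeR adjusted p = 0.643). Efnb3 had a log2 fold difference of -0.15 ± 0.31 (SE, edgeR adjusted p = 0.927). The difference between Efnb1 and Efnb2 in their response was not tested.

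Ephb3, an EphB receptor gene (chromosome 16, 21204755 to 21223305), had 3.60, 4.58 and 9.54 CPM in the tdTom+ libraries, against 21.05, 9.82 and 15.8 CPM in the tdTom- libraries. Its highest tdTom+ library, number 3, lay just under the lowest tdTom- library, number 2. This gave a log2 fold difference of -1.40 ± 0.42 (SE), or 2.63-fold lower, and did not pass (edgeR adjusted p = 0.174). The difference passed without tdTom+ replicate 3 (edgeR adjusted p = 0.0408) and with DESeq2 (0.0451), in a range of 0.0408 to 0.644 over the alternatives. Ephb1 stood the other way, with 19.7, 17.9 and 24.5 CPM in the tdTom+ libraries, against 16.8, 18.3 and 15.7 CPM in the tdTom- libraries, overlapping groups and a log2 fold difference of 0.29 ± 0.21 (SE, edgeR adjusted p = 0.715). Ephb2 and Ephb6, both at low counts, had log2 fold differences of -0.73 ± 0.84 and -0.77 ± 0.81 (SE), and neither passed.

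The largest log2 fold differences among tested guidance genes were those of EphA receptor genes. These receptors mostly bind ephrin-A ligands, and in the nervous system several EphA receptors shape axon maps by repulsion. Epha3 (chromosome 16, 63543534 to 63864175) had 26, 0 and 25 counts in the tdTom+ libraries, against 161, 50 and 93 counts in the tdTom- libraries. It was at 0 in tdTom+ replicate 2, and no tdTom+ library reached the lowest tdTom- library. The means were 1.54 ± 1.33 CPM in tdTom+ cells and 10.1 ± 5.70 CPM in tdTom- cells (SD, n = 3 each). The log2 fold difference of -2.70 ± 0.89 (SE) was short of the threshold (edgeR adjusted p = 0.234). It passed with the replicate number as a block (edgeR adjusted p = 0.0412), in a range of 0.0412 to 0.739 over the alternatives.

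Epha7 (chromosome 4, 28813131 to 28967499) had 10.7, 1.28 and 5.89 CPM in the tdTom+ libraries, against 35.3, 21.8 and 16.5 CPM in the tdTom- libraries. Again every tdTom+ library lay below every tdTom- library, and replicate 2 was the lowest of the tdTom+ libraries. The log2 fold difference was -2.04 ± 0.56 (SE), or 4.11-fold lower, with a 95% interval of -3.28 to -0.80 (edgeR adjusted p = 0.13). It passed with DESeq2 (adjusted p = 0.00403) and with the replicate number as a block (edgeR adjusted p = 0.0177), in a range of 0.00403 to 0.507 over the alternatives. Epha4, a receptor that binds ephrins of both classes (chromosome 1, 77367185 to 77515088), had 10.96, 4.94 and 6.92 CPM in the tdTom+ libraries, against 21.2, 16.4 and 12.4 CPM in the tdTom- libraries. Its groups did not overlap either, and the log2 fold difference was -1.13 ± 0.34 (SE, edgeR adjusted p = 0.182).

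Epha2, the most abundant EphA receptor gene, overlapped between the groups. It had 64.0, 58.1 and 83.2 CPM in the tdTom+ libraries, against 66.2, 71.9 and 73.1 CPM in the tdTom- libraries, and its log2 fold difference of -0.04 ± 0.15 (SE) had a 95% interval of -0.36 to 0.28 (edgeR adjusted p = 0.963). Epha1 and Epha5 had log2 fold differences of -0.29 ± 0.54 and 0.04 ± 0.83 (SE) and did not pass. Summed over the 9 EphA genes there were 97.9, 67.6 and 103 CPM in the tdTom+ libraries, against 143, 121 and 121 CPM in the tdTom- libraries.

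Of the ephrin-A ligands, Efna1 had 303, 369 and 297 CPM in the tdTom+ libraries, against 343, 364 and 382 CPM in the tdTom- libraries, with overlapping groups and a log2 fold difference of -0.17 ± 0.09 (SE, edgeR adjusted p = 0.589). Efna2 had 5.53, 4.58 and 9.63 CPM in the tdTom+ libraries, against 14.9, 7.70 and 11.8 CPM in the tdTom- libraries and a log2 fold difference of -0.80 ± 0.38 (SE, edgeR adjusted p = 0.505). Efna4 and Efna5 had log2 fold differences of -0.54 ± 0.32 and -0.10 ± 0.35, and Efna3 had 0.32 ± 0.64 (SE), so that 4 of the 5 lay below 0 and none passed. Of the exons of Efna3 and Efna4, 14.6% and 10.51% overlap a gene on the other strand, and the library kit does not mark strand.

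Among 26 tested genes that act downstream of ephrins and Eph receptors, such as adaptors and exchange factors, 0 were called in either direction by edgeR, 13 lay below 0 and the median log2 fold difference was 0.0090. The 2 with the smallest p were Itsn1, an endocytic scaffold and exchange factor gene, with 84.5, 84.2 and 96.9 CPM in the tdTom+ libraries, against 66.0, 62.6 and 58.4 CPM in the tdTom- libraries, and Vav3, an exchange factor gene. Their log2 fold differences were 0.51 ± 0.12 and 0.53 ± 0.15 (SE, edgeR adjusted p = 0.0653 and 0.137). With DESeq2 both passed (adjusted p = 0.00915 and 0.0413, in ranges up to 0.357 and 0.466 over the alternatives).

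**Figure D4:**
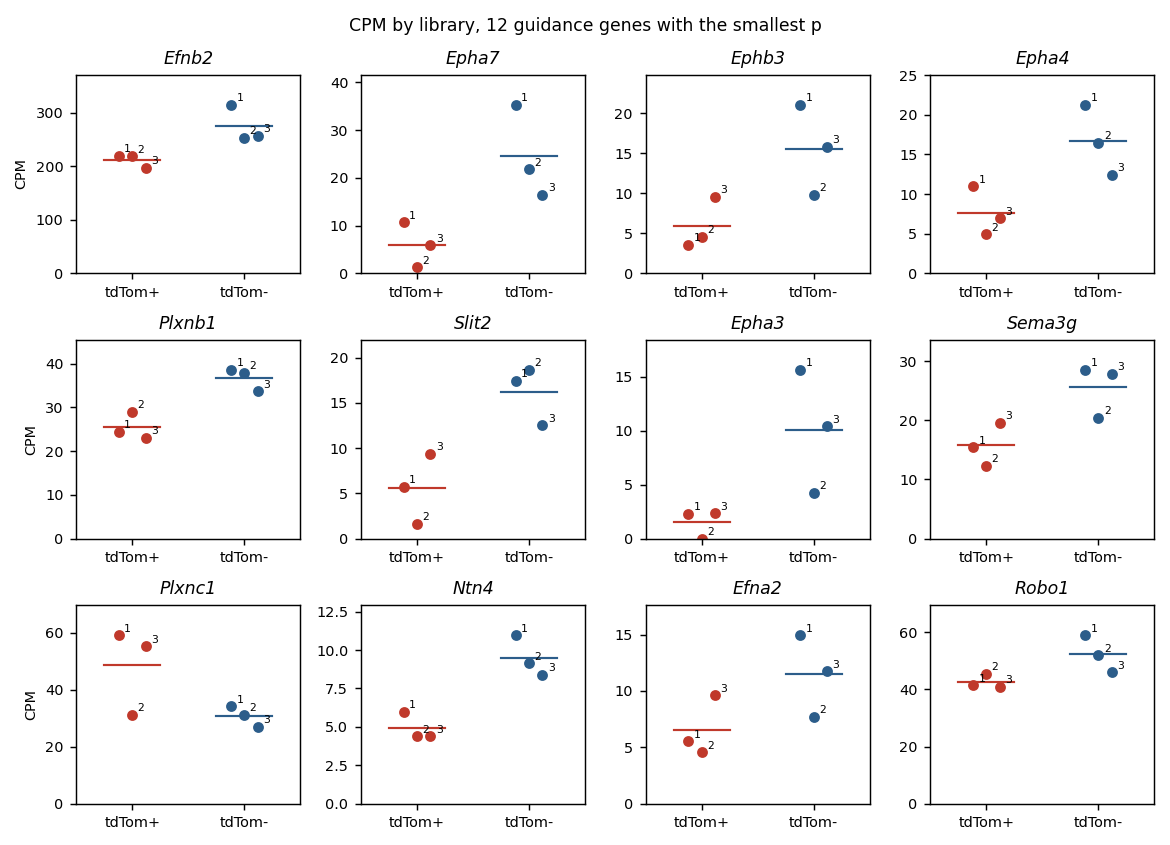
CPM in each of the 3 tdTom+ (red, left) and 3 tdTom- (blue, right) libraries, numbered by replicate, with the group mean as a line, for the 12 guidance genes with the smallest p. The groups do not overlap for Efnb2, Epha7, Ephb3, Epha4, Plxnb1, Slit2, Epha3, Sema3g, Ntn4 and Robo1, all lower in tdTom+ libraries, and they overlap for Plxnc1 and Efna2.

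Secreted class 3 semaphorins were mostly of low abundance. Sema3f, whose protein acts through neuropilin 2, was the highest, with 50, 32.4 and 51.8 CPM in the tdTom+ libraries, against 68.8, 36.3 and 38.3 CPM in the tdTom- libraries, and its groups overlapped. Its log2 fold difference was -0.10 ± 0.26 (SE, edgeR adjusted p = 0.945). Sema3g, an endothelial semaphorin gene of arteries (chromosome 14, 31217860 to 31230352), had 15.4, 12.4 and 19.6 CPM in the tdTom+ libraries, against 28.5, 20.4 and 27.9 CPM in the tdTom- libraries. The highest tdTom+ library came close to the lowest tdTom- library without overlapping it, and the log2 fold difference of -0.69 ± 0.24 (SE) was short of the threshold (edgeR adjusted p = 0.26). Sema3a, the classical growth cone collapsing factor, which acts through neuropilin 1, had 8.07, 16.3 and 11.6 CPM in the tdTom+ libraries, against 22.9, 15.7 and 15.8 CPM in the tdTom- libraries, with a log2 fold difference of -0.60 ± 0.30 (SE, edgeR adjusted p = 0.535).

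Sema3e, the ligand that binds plexin-D1 without a neuropilin, had 23, 0 and 51 counts in the tdTom+ libraries, against 4, 13 and 5 counts in the tdTom- libraries. The tdTom+ libraries stood both above and below all tdTom- libraries, so no direction can be read. Sema3c was likewise uneven, with 71, 46 and 4 counts in the tdTom+ libraries, against 70, 54 and 7 counts in the tdTom- libraries; both libraries numbered 3 were the low ones. Sema3d and Sema3b had log2 fold differences of 0.35 ± 0.48 and -1.58 ± 0.91 (SE) and did not pass.

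Membrane-bound semaphorins of classes 4 and 6 included the most abundant semaphorin genes. Sema4c, whose protein is a plexin-B2 ligand, had 123, 127 and 142 CPM in the tdTom+ libraries, against 131, 101 and 122 CPM in the tdTom- libraries, a log2 fold difference of 0.14 ± 0.12 (SE) and a 95% interval of -0.11 to 0.40. Per kilobase it held 91.9% to 93.5% in tdTom+ libraries and 91.6% to 92.7% in tdTom- libraries of class 4 transcripts. Sema4d, encoding the ligand of plexin-B1, had a log2 fold difference of 0.15 ± 0.35 (SE). Sema4b, Sema4f and Sema4g, all at low counts, had 0.81 ± 0.79, -0.02 ± 1.38 and -0.46 ± 0.92 (SE) on the same log2 scale, and none passed. Sema6d and Sema6a, genes of transmembrane ligands of class A plexins, had 203, 176 and 192 CPM in the tdTom+ libraries, against 190.3, 214 and 178 CPM in the tdTom- libraries, and 144, 141 and 175 CPM in the tdTom+ libraries, against 150.0, 179 and 149 CPM in the tdTom- libraries. Their log2 fold differences of -0.03 ± 0.09 and -0.05 ± 0.11 (SE) had 95% intervals of -0.24 to 0.18 and -0.30 to 0.19.

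Sema6b and Sema6c differed more between libraries. Sema6b had 38.5, 26.1 and 51.9 CPM in the tdTom+ libraries, against 29.8, 29.7 and 39.4 CPM in the tdTom- libraries, and replicate 2 was the lowest tdTom+ library. Sema6c had 27.6, 17.9 and 26.5 CPM in the tdTom+ libraries, against 32.3, 28.6 and 34.5 CPM in the tdTom- libraries, without overlap, and a log2 fold difference of -0.40 ± 0.20 (SE, edgeR adjusted p = 0.537). Sema5a, Sema5b and Sema7a had log2 fold differences of -0.93 ± 0.64, -1.27 ± 1.17 and -0.61 ± 0.63 (SE), none of which passed. Of all 19 tested semaphorin genes, 6 had a log2 fold difference above 0 and 13 below it.

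Plexins were led by Plxnd1 (chromosome 6, 115954811 to 115995005), with 727, 739 and 768 CPM in the tdTom+ libraries, against 741, 627 and 710.4 CPM in the tdTom- libraries. Its groups overlapped, and the log2 fold difference of 0.10 ± 0.07 (SE, edgeR adjusted p = 0.703) had a 95% interval of -0.06 to 0.27. Plxnc1, the receptor gene for semaphorin 7A (chromosome 10, 94790866 to 94944835), was the 1 guidance gene higher in tdTom+ cells at an unadjusted p under 0.05, with 59.1, 31.2 and 55.2 CPM in the tdTom+ libraries, against 34.1, 31.2 and 27.1 CPM in the tdTom- libraries. Replicates 1 and 3 of the tdTom+ group lay above all tdTom- libraries and replicate 2 lay among them. The log2 fold difference was 0.65 ± 0.23 (SE, edgeR adjusted p = 0.278); without tdTom+ replicate 2 it was 0.89 and passed (edgeR adjusted p = 0.0307, in a range of 0.0307 to 0.701 over the alternatives). Plxnb1, the receptor gene for semaphorin 4D (chromosome 9, 109095389 to 109119917), had 24.4, 29.0 and 23.0 CPM in the tdTom+ libraries, against 38.5, 37.9 and 33.7 CPM in the tdTom- libraries, without overlap, and a log2 fold difference of -0.53 ± 0.17 (SE, edgeR adjusted p = 0.207).

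The other plexins overlapped between the groups. Plxnb2 had 87.4, 47.0 and 67.0 CPM in the tdTom+ libraries, against 89.6, 83.9 and 64.0 CPM in the tdTom- libraries and a log2 fold difference of -0.24 ± 0.21 (SE). Plxna1 and Plxna2 had log2 fold differences of 0.17 ± 0.17 and 0.08 ± 0.19, and Plxna3 and Plxna4 of -0.74 ± 0.54 and -0.28 ± 0.38 (SE). Of the exons of Plxna1 10.7% overlap a gene on the other strand, as do 2.97% of those of Plxnb1.

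Of 25 tested co-receptors and effectors of semaphorins, 1 was called higher (beside 0.769% of all tested genes) and 0 lower, and the median log2 fold difference was 0.0082. It was Nrp2, the neuropilin 2 gene, a co-receptor for class 3 semaphorins and for VEGF-C that is also a venous and lymphatic gene, with 302, 359 and 329 CPM in the tdTom+ libraries, against 203, 257 and 224 CPM in the tdTom- libraries. The log2 fold difference was 0.53 ± 0.10 (SE, edgeR adjusted p = 0.0258), in a range of 5.05e-05 with DESeq2 to 0.215 over the alternatives. It no longer passed when tdTom+ replicate 2 (edgeR adjusted p = 0.0793) or 3 (0.0504) was left out, when tdTom- replicate 1 (0.149) or 3 (0.13) was, or when both libraries numbered 3 were (0.215). Nrp1, the neuropilin 1 gene, had 4668 to 5759 counts per tdTom+ library and 3953 to 6252 per tdTom- library, and a log2 fold difference of 0.0082 ± 0.09 (SE).

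Slit ligands were scarce and Robo receptors abundant. Slit2 (chromosome 5, 47983138 to 48307733) had 5.70, 1.65 and 9.35 CPM in the tdTom+ libraries, against 17.5, 18.6 and 12.5 CPM in the tdTom- libraries. The groups did not overlap, and tdTom+ replicate 2 was the lowest library. Slit2 thus had a log2 fold difference of -1.54 ± 0.49 (SE), or 2.91-fold lower (edgeR adjusted p = 0.21), and DESeq2 gave an adjusted p of 0.0469, in a range of 0.0469 to 0.557. Slit3 had 2.72, 3.11 and 2.80 CPM in the tdTom+ libraries, against 8.44, 5.50 and 2.80 CPM in the tdTom- libraries, with overlapping groups and a log2 fold difference of -0.95 ± 0.52 (SE, edgeR adjusted p = 0.58). Slit1 was too low to test with edgeR, with 0, 0 and 0 counts in the tdTom+ libraries, against 7, 3 and 4 counts in the tdTom- libraries. It did not pass with DESeq2 (adjusted p = 0.486). With the tdTom+ group set at a floor of 3 counts in place of 0, the bound on its difference was 5-fold lower in tdTom+ cells. That value takes the tdTom- counts as exact and leaves out the spread between libraries.

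Robo4 and Robo1 are printed with their RefSeq start windows because the first is the endothelial member of the family and the second the widely expressed one. The windows, again from RefSeq on GRCm38.p6 with each CpG in capitals, lie at chr9:37401722-37402021, plus strand, for Robo4, and at chr16:72662899-72663198, plus strand, for Robo1. The Robo1 window lies at a transcript start inside the gene, far downstream of its first annotated base.
Robo4: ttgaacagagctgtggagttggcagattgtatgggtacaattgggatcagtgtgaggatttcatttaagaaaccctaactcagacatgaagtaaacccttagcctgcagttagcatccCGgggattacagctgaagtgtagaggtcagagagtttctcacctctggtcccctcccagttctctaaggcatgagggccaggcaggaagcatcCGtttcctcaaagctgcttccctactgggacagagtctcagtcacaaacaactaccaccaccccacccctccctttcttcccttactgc
Robo1: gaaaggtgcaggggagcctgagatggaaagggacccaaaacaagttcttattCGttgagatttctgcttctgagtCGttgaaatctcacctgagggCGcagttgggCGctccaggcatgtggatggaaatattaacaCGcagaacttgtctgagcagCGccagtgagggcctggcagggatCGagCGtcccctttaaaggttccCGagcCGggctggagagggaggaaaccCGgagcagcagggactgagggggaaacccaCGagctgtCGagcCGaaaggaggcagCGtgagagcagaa
The Robo4 window held 2 CpG and the Robo1 window 15.

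Robo4 (chromosome 9, 37401897 to 37415115) had 453, 469.9 and 503 CPM in the tdTom+ libraries, against 482, 537 and 456 CPM in the tdTom- libraries. Its groups overlapped, and the log2 fold difference of -0.05 ± 0.08 (SE, edgeR adjusted p = 0.901) had a 95% interval of -0.22 to 0.12. Robo1 (chromosome 16, 72308306 to 73046095) had 41.5, 45.5 and 40.9 CPM in the tdTom+ libraries, against 59.0, 52.0 and 46.0 CPM in the tdTom- libraries, with the highest tdTom+ library just under the lowest tdTom- library, and a log2 fold difference of -0.30 ± 0.14 (SE, edgeR adjusted p = 0.521). Robo3, which in commissural axons lowers the response to Slit, had 6, 8 and 162 counts in the tdTom+ libraries, against 47, 11 and 23 counts in the tdTom- libraries, so that its mean in tdTom+ cells rests on replicate 3. Robo2 had a log2 fold difference of 0.16 ± 0.59 (SE).

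Of 20 tested co-factors and effectors of Slit and Robo, Robo4 among them, 0 were called in either direction, 11 lay below 0 and the median log2 fold difference was -0.04. The smallest p was that of Gpc1, the glypican 1 gene, whose protein carries heparan sulfate chains that bind Slit, with 9.39, 5.58 and 12.7 CPM in the tdTom+ libraries, against 23.5, 16.8 and 17.8 CPM in the tdTom- libraries. It did not overlap between the groups and had a log2 fold difference of -1.07 ± 0.32 (SE, edgeR adjusted p = 0.168). Next was Hs6st1, a heparan sulfate sulfotransferase gene, with 0.35 ± 0.19 (SE, edgeR adjusted p = 0.587).

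Netrin genes were low. Ntn4, a netrin gene whose protein is built into basement membranes (chromosome 10, 93640681 to 93747207), had 5.96, 4.39 and 4.39 CPM in the tdTom+ libraries, against 10.96, 9.14 and 8.40 CPM in the tdTom- libraries, without overlap, and a log2 fold difference of -0.95 ± 0.33 (SE, edgeR adjusted p = 0.285). Ntn1, the classical netrin gene, had 7.81, 4.30 and 12.2 CPM in the tdTom+ libraries, against 6.21, 1.69 and 3.36 CPM in the tdTom- libraries, and its groups overlapped; the log2 fold difference was 1.11 ± 0.55 (SE, edgeR adjusted p = 0.526). Ntn3 had a log2 fold difference of -0.74 ± 0.47 (SE). The difference between Ntn1 and Ntn4 was not itself tested.

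Unc5b, the endothelial netrin receptor gene (chromosome 10, 60762593 to 60831581), led its family with 46.0, 50.9 and 48.0 CPM in the tdTom+ libraries, against 51.6, 53.5 and 66.8 CPM in the tdTom- libraries. The highest tdTom+ library lay just under the lowest tdTom- library, and the log2 fold difference was -0.25 ± 0.14 (SE, edgeR adjusted p = 0.617), with a 95% interval of -0.56 to 0.07. Unc5a had a log2 fold difference of -0.04 ± 0.41 and Unc5c one of -1.15 ± 0.88 (SE). Summed over the 4 Unc5 genes there were 58.1, 57.1 and 60.4 CPM in the tdTom+ libraries, against 68.8, 67.8 and 74.9 CPM in the tdTom- libraries, without overlap.

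Of 16 tested netrin receptors outside the Unc5 family, co-factors and related ligands, 0 were called in either direction, and the median log2 fold difference was 0.06. Neo1, the neogenin gene, whose protein binds netrins and repulsive guidance molecules, had 36.4, 24.3 and 17.6 CPM in the tdTom+ libraries, against 48.4, 41.6 and 47.7 CPM in the tdTom- libraries, without overlap. Its log2 fold difference of -0.81 ± 0.24 (SE, edgeR adjusted p = 0.161) passed without tdTom+ replicate 1 (edgeR adjusted p = 0.0436) and with DESeq2 (0.0391), in a range up to 0.494. Src, a kinase gene of netrin signalling, had a log2 fold difference of -0.44 ± 0.16 (SE, edgeR adjusted p = 0.304). Dcc, the gene of the main axonal netrin receptor, was near the detection limit, with 5 to 29 counts per tdTom+ library and 6 to 28 per tdTom- library.

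The 8 untested genes had at most 58 counts in any library. Plxnb3 had 0, 1 and 58 counts in the tdTom+ libraries, against 10, 2 and 0 counts in the tdTom- libraries, and its tdTom+ counts came almost wholly from replicate 3. Ntn5, of whose exons 23.4% overlap a gene on the other strand, totalled 7 counts in tdTom+ cells and 0 in tdTom- cells. With the floor of 3 counts per group the bound on its difference was 2.18-fold higher in tdTom+ cells. That value takes the 7 tdTom+ counts as exact, and 5 of them came from 1 library. Epha6 and Epha8 were at 0 in all tdTom+ libraries and totalled 4 and 2 counts in tdTom- cells. Sema4a, Unc5d and Epha10 totalled 13, 10 and 10 counts in tdTom+ cells, against 23, 20 and 4 in tdTom- cells. The same floor put the bound for Epha6 at 1.43-fold lower in tdTom+ cells, but this takes its 4 tdTom- counts as exact. For Epha6, Epha8, Sema4a, Unc5d and Epha10 no difference could be resolved at this depth.

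Eph receptors and Slits are also made by neural and mesenchymal cells, whose markers are given here beside them. In the mesenchyme and mural list all 17 tested genes had a log2 fold difference below 0, with a median of -0.97 and 0 called, and no list member was at 0 in every library. Summed, this list had 341, 225 and 773 CPM in the tdTom+ libraries, against 1472, 601 and 846 CPM in the tdTom- libraries, and the groups overlapped. Tested neural genes numbered 13, with 8 below 0, 1 called higher (Gap43, which codes for a growth cone protein), a median of -0.11 and sums of 479, 473 and 462 CPM in the tdTom+ libraries, against 492, 476 and 462 CPM in the tdTom- libraries, with overlapping groups. Gap43 itself had 183, 164 and 176 CPM in the tdTom+ libraries, against 121, 124 and 131 CPM in the tdTom- libraries. Without Gap43, a split made after the values were seen, the neural sums were 296, 309 and 286 CPM in the tdTom+ libraries, against 371, 351 and 331 CPM in the tdTom- libraries, lower in every tdTom+ library. Because this split takes out the 1 called gene, which went the other way, it is no separate result. Stmn2, a gene of growing neurons, had 30.1, 35.4 and 28.2 CPM in the tdTom+ libraries, against 52.3, 46.8 and 45.5 CPM in the tdTom- libraries, without overlap, and a log2 fold difference of -0.62 ± 0.15 (SE, edgeR adjusted p = 0.0879). The neural progenitor gene Sox2 had 20, 5 and 22 counts in the tdTom+ libraries, against 23, 43 and 53 in the tdTom- libraries. The neural genes Tubb3 and Elavl3 overlapped between the groups. Their log2 fold differences were -0.11 ± 0.28 and 0.38 ± 0.81 (SE, edgeR adjusted p = 0.940 and 0.928). The epithelium list had 6 of 8 tested genes below 0, a median of -0.80 and sums of 75.5, 22.8 and 1.96 CPM in the tdTom+ libraries, against 45.7, 78.0 and 39.4 CPM in the tdTom- libraries.

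Replicate 2 of the tdTom+ group had the lowest mesenchyme and mural sum of the 6 libraries, and it was also the lowest library for Epha7, Epha4, Epha3, Slit2 and Sema3g. Others lower at an unadjusted p under 0.05 did not follow it. Efnb2 and Plxnb1 were lowest in tdTom+ replicate 3, which had the highest mesenchyme and mural sum of its group, and Ephb3 in tdTom+ replicate 1. Ntn4 was alike in tdTom+ replicates 2 and 3. Over all 58 tested guidance genes tdTom+ replicate 2 was the lowest library for 22, or 37.9%, beside 22% of all tested genes. Replicate 1 of the tdTom- group, with the highest mesenchyme and mural sum, was the highest library for 26 of the 58, or 44.8%, beside 13.2% of all tested genes, and the lowest for 0, beside 10.9%. The groups of Epha7, Epha4, Epha3 and Slit2 did not overlap, while the mesenchyme sum of tdTom+ replicate 3 lay above that of tdTom- replicate 2. The part of non-endothelial RNA in the values of these genes was not tested.

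The remaining marker lists describe the endothelium and other cells. The 14 endothelial core genes, Robo4 among them, had 0 calls and a median log2 fold difference of 0.03. Beside the counts that follow, 0.769% of all tested genes were called higher and 0.814% lower, with a median of -0.00026. Of 22 brain endothelial genes tested 7 were called lower, with a median of -0.72, and of 19 liver sinusoidal genes 13 were called higher, with a median of 1.22. Of 15 tip and sprouting genes, Unc5b among them, 1 was called lower, with a median of -0.06. Medians were 2.78 with 8 of 14 called higher for megakaryocyte and platelet genes, 0.83 with 2 of 11 called higher for erythroid genes, 0.30 with 1 of 13 called higher for macrophage and myeloid genes, and -1.24 with 0 of 7 called for hepatoblast and hepatocyte genes. These lists were drawn up with earlier results of these data known and are not independent evidence of their direction.

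Promoter windows of the same length were available from RefSeq for 57 of the 66 genes, 73 windows in all; Efnb3, Ntn1, Plxna1, Plxna4, Sema3b, Sema3f, Sema6a, Slit1 and Unc5d had none. The median number of CpG was 19 in the guidance windows and 13 over 21263 windows of protein-coding genes. Guidance windows ranged from 2 to 56 CpG. With 2 CpG, the Robo4 window printed above was among the lowest, shared by 3 of the 57 genes and, at 2 or fewer, by 18.1% of protein-coding windows. The 35 CpG of the Efnb2 window were reached or passed by 8 of the 57 genes and by 9.12% of protein-coding windows. Of the other 3 genes among the 5 highest per kilobase, the windows of Efna1, Plxnd1 and Ephb4 held 20, 23 and 14 CpG.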

How the data were processed

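RNA of sorted endothelial cells was amplified with a SMART-seq v4 kit and made into Nextera XT libraries, per the labels' protocols. Tools in the submitters' processing notes were STAR 2.5.2b, featureCounts 1.4.6, Trimmomatic 0.36.4, DESeq2 and Picard 2.7.1.1, with the build mm10 and no order given. The kit does not mark strand, and how strand was counted was not given in the sources used here. The counts are whole-number reads per gene as deposited by the authors, without normalization. The authors' deposited log2 fold change runs tdTom- over tdTom+ and had its sign turned here, and their deposited p-values were used as given. The deposited table also holds 6 normalized columns, which were not used.

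Groups came from sample titles. The test was edgeR 4.0.16 under R 4.3.3: TMM scaling, filterByExpr (minimum count 10), a robust two-sided quasi-likelihood F-test and Benjamini-Hochberg adjustment over 13142 genes. An SE is the size of the log2 fold difference over the root of its F. Alternatives were RLE scaling, DESeq2 1.42.0, limma 3.58.1 (voom), no filter, a minimum count of 30, the replicate number as a block, leaving out each library, and leaving out both libraries numbered 3. No pair of libraries of a group agreed within sampling noise. The mean chi-square per gene was 14.8, 17.6 and 19 for pairs of tdTom+ libraries, and 8.44, 7.85 and 10.1 for pairs of tdTom- libraries.

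Exon lengths, coordinates and overlaps came from GENCODE M21 (mm10); the authors' annotation was not given in the sources used here. Amplified reads without molecular identifiers are not independent molecules. The members, the 17 lists and the rule for named genes were chosen with earlier results of these data known. That rule took members past the threshold, the 12 smallest p, the 2 most abundant of each family, known vascular members, and list members past the threshold or else the 2 smallest p in each pathway list. Other members named, and other marker genes, were chosen after their values were seen.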

Additional observations from a re-analysis of the deposited data

How the results depend on the processing

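The count of 0 guidance genes called in either direction also held with RLE scaling, with limma-voom, with no filter, with the minimum count of 30 and without both libraries numbered 3. With DESeq2 the count lower in tdTom+ cells was 4. Leaving out 1 library gave 0 to 1 genes lower and 0 to 1 higher. The 1 guidance gene higher at an unadjusted p under 0.05 became 0 without both libraries numbered 3, beside 3.96% of all genes, and the 9 lower became 11, or 18.6%, beside 5.6%. When 1 library was left out, 0 to 4 were higher (0% to 6.67%), beside 3.55% to 5.28% of all genes, and 6 to 13 were lower (10.2% to 21.7%), beside 3.83% to 8.46%. These unadjusted counts were added after the data were seen.

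Over all genes, DESeq2 called 211 higher and 291 lower, and leaving out both libraries numbered 3 gave 27 higher and 16 lower. Leaving out 1 library gave 37 to 97 higher and 25 to 92 lower, beside 101 and 107 with all libraries.

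Libraries of the 2 groups share replicate numbers, but no label ties a number to an embryo, and deviations from the group means correlated at r = 0.12, 0.0912 and 0.17 across genes for numbers 1, 2 and 3, so the numbers were not taken as pairs. Each library correlated best with its own number, and combinations of unlike numbers had r of -0.173 to 0.0652. The libraries numbered 3 were also the female ones in both groups. These are hints from the data and not the design, and the count of 0 guidance genes called depends on this choice. With the replicate block 2 guidance genes were called lower (Epha3 and Epha7, edgeR adjusted p = 0.0412 and 0.0177) and 0 higher. At an unadjusted p under 0.05 there were 12 lower (20.7%) and 2 higher (3.45%), beside 6.92% and 4.69% of all genes. Past the adjusted threshold over all genes 128 were higher and 167 lower.

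Of 559 values of 43 named genes under the alternatives, 537 kept their sign and 22 did not. All 22 were small differences that passed under no alternative. Leaving out 1 library moved the log2 fold change over these ranges: Sema3f -0.26 to 0.26, Sema4d -0.060 to 0.29, Sema6a -0.16 to 0.037, Sema6b -0.027 to 0.46, Sema6d -0.091 to 0.046, Sema3c -0.82 to 0.42, Epha2 -0.20 to 0.064, Ephb4 -0.014 to 0.087, Efna5 -0.49 to 0.24, Robo4 -0.10 to 0.018 and Unc5a -0.36 to 0.24. Without both libraries numbered 3, Sema4d was at -0.022. The cause of these moves was not tested. With at most 3 libraries per group and under 10 CPM in 35 of 66 genes, differences in the rarer ligands and receptors could be resolved only where they were large.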
